A study of Mus musculus with 4 samples.

Results

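The S100 genes S100a8, S100a9, S100a4, S100a6, S100a10, S100a11, S100a14 and S100a16 were followed across the cell types of 4T1 tumours. These 8 genes were taken by symbol from the 55450 genes of the deposited count matrix. S100 proteins are small proteins with a pair of EF-hand motifs, most of which bind calcium and then change shape to grip a partner protein. S100a8 and S100a9 pair as calprotectin, which fills the cytosol of neutrophils, binds zinc and manganese, and acts as an alarmin on Toll-like receptor 4 once it leaves the cell. The other members stay mostly inside cells, where they bind annexins and the cytoskeleton, and several of them are abundant in carcinoma cells and stroma.

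4T1 is a mammary carcinoma line of BALB/c mice, and 1000000 of its cells were placed in the right flank of female mice aged 6 to 8 weeks. Of the 4 labelled samples, 2 (LC-2 and LC-5) were given PBS and 1 (LC-6) was given TIOs (a system made from macrophages loaded with upconverting nanoparticles and frozen in liquid nitrogen), each by vein on day 7. All were then lit with NIR at 980 nm and 1.0 W cm-2 for 5 min on day 8, day 9 and day 10, and tumours were taken on day 13. The sample titled PBS carries a title and a protocol that name different treatments, so it was put in no group. The study sorted the cells for CD45, the leucocyte protein encoded by Ptprc, and counted RNA molecules by their unique molecular identifiers (UMIs) on the 10x Genomics platform.

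The matrix holds 4 libraries, told apart by a barcode suffix that no source used here ties to a sample. Each library is therefore given apart with its treatment unknown, and no comparison of TIOs with PBS was made. They held 6902 to 9149 barcodes and 69255999 to 108646352 UMIs, and 32133 of the 33064 barcodes had at least 300 genes and at most 15% mitochondrial UMIs. The 8 members made up 1.56% of the UMIs of these kept barcodes and 1.42 to 1.69% inside single libraries. Among the kept barcodes, 95 barcode sequences occurred in more than 1 library. Cells were assigned to a type by lists of marker genes, none of them an S100 gene, which gave 26834 cells (83.5%) a type and left 5299 ungated. Of the types, 13 held at least 50 cells, and the 32 B cell-like cells were left out of the comparison. Types and libraries overlapped in part. Library 1 held all 90 keratinocyte-like cells and 3847 of 4079 cells gated as tumour or epithelial-like, and library 4 held 2809 of the 3570 monocyte-like cells. Ptprc had a UMI in 67.0% of neutrophil-like cells and in 14.2% of tumour or epithelial-like cells. A cell of low depth can lack a UMI of a gene that it expresses. Cells gated to types other than leucocytes, such as 4486 fibroblast-like and 4079 tumour or epithelial-like cells, were common in the matrix despite the sort.

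All members lie on chromosome 3 (GRCm38, GENCODE vM21 positions) as protein-coding genes. A first group of 6 spans 168866 bases, from S100a14 (90526856-90528837, plus strand) over S100a16 (90537254-90543151, plus), S100a4 (90603771-90606045, plus), S100a6 (90612882-90624181, plus) and S100a8 (90668978-90670035, plus) to S100a9 (90692632-90695721, minus). S100a8 and S100a9 are neighbours on opposite strands with 22596 bases between them. The other 2, S100a11 (93520488-93526287, plus) and S100a10 (93555080-93564643, plus), lie 2824766 bases beyond S100a9. S100a4 overlaps Gm42674, an annotated gene on the same strand that is identical to it over 302 bases. Gm42674 held 0 UMIs against 206762 for S100a4 over all barcodes. Any loss of S100a4 reads to this overlap was not measured. S100a11 has a copy in Gm12854 (99.0% identical over 297 bases, 2620 UMIs against 404565 for S100a11 over all barcodes) and another in Gm7665 (98.7% over 297 bases, 12 UMIs), and reads could be split among them.

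The bases before the RefSeq start of the neutrophil-led members are shown because S100a8 and S100a9 followed each other across cell types and single cells. S100a11, led by the same type, did so only in part, and its lower counts can weaken the correlation over single cells. The table of RefSeq starts used here (GRCm38.p6) was matched for 6 of the 8 members, not for S100a10 and S100a14. In the lines below, capitals mark matches on either strand to a PU box (GAGGAA), a C/EBP site (TTGCNNAA), an AP-1 site (TGANTCA) or a TATA box (TATAAA). The S100a8 line is chr3:90668821-90668977 (plus strand, 157 bases, ending where GENCODE starts the gene), the S100a9 line chr3:90695722-90695971 (minus strand, 250 bases) and the S100a11 line chr3:93520246-93520487 (plus strand, 242 bases).
S100a8: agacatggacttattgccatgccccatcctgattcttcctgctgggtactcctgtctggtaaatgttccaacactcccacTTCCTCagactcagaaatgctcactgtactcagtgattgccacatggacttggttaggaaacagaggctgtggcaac
S100a9: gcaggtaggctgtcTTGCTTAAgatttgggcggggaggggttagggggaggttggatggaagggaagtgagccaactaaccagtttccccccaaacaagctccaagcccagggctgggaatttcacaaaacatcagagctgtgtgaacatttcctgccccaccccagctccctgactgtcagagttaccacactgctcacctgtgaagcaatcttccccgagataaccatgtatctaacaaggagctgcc
S100a11: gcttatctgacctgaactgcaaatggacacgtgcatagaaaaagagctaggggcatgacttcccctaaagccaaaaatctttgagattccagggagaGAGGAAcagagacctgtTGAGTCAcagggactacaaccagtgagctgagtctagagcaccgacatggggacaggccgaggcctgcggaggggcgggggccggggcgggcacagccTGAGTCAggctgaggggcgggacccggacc

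Over the whole 250 bases before its start, S100a8 held a PU box 170 bases before it and another 36 bases before it, which abuts a TATA box 30 bases before it. The latter pair lies past the end of the line printed for S100a8. S100a9 held a C/EBP site 236 bases before its start and none of the other motifs. S100a11 held AP-1 sites 136 and 38 bases before its start and a PU box 153 bases before it. Among the 32851 starts in the RefSeq table, the same 250 bases held a PU box in 23.3%, a TATA box in 12.4%, a C/EBP site in 9.56% and an AP-1 site in 6.75%. S100a8 and S100a9 held 2 CpG pairs each and S100a11 held 11, against a median of 6. A match describes the letters only.

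The level of a gene in a type is the sum of its UMIs per 1000000 UMIs of that type (CPM), with exact 95% Poisson intervals, which cover counting error only. By this level 3 members (S100a8, S100a9 and S100a11) were highest in neutrophil-like cells, 2 (S100a6 and S100a10) in tumour or epithelial-like cells, 2 (S100a14 and S100a16) in keratinocyte-like cells and 1 (S100a4) in monocyte-like cells. Of the 11901 genes with at least 1000 UMIs, 7.25% were highest in neutrophil-like cells, 9.2% in tumour or epithelial-like cells, 4.83% in keratinocyte-like cells and 4.54% in monocyte-like cells. The leading type was the same in all 4 libraries for 3 members (S100a8, S100a9 and S100a11), as it was for 14.9% of the 11901 genes. For S100a11 the lead in library 1 was within counting error (1493 against 1354 CPM in keratinocyte-like cells, with overlapping intervals). With CPM replaced by UMIs per cell over pooled cells, 4 members changed their leading type and 0 were led by neutrophil-like cells. Neutrophil-like cells had a median total of 1812 UMIs against 26165 in fibroblast-like cells. S100a8 and S100a9 passed to keratinocyte-like cells (126 and 140 UMIs per cell), all of library 1. These values are means, and the 5 cells with the most S100a8 held 63.8% of that type's S100a8 UMIs. By median the order did not reverse, at 5 UMIs of S100a8 in keratinocyte-like against 39 in pooled neutrophil-like cells. In libraries 2 to 4 neutrophil-like cells still led both genes per cell, with 54.2, 60.4 and 69.4 UMIs of S100a8 and 101, 105 and 114 UMIs of S100a9. CPM is thus a share of a cell's RNA molecules, not an amount per cell, and the difference between these scales touches every statement on neutrophil-like cells below.

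**Figure D1:**
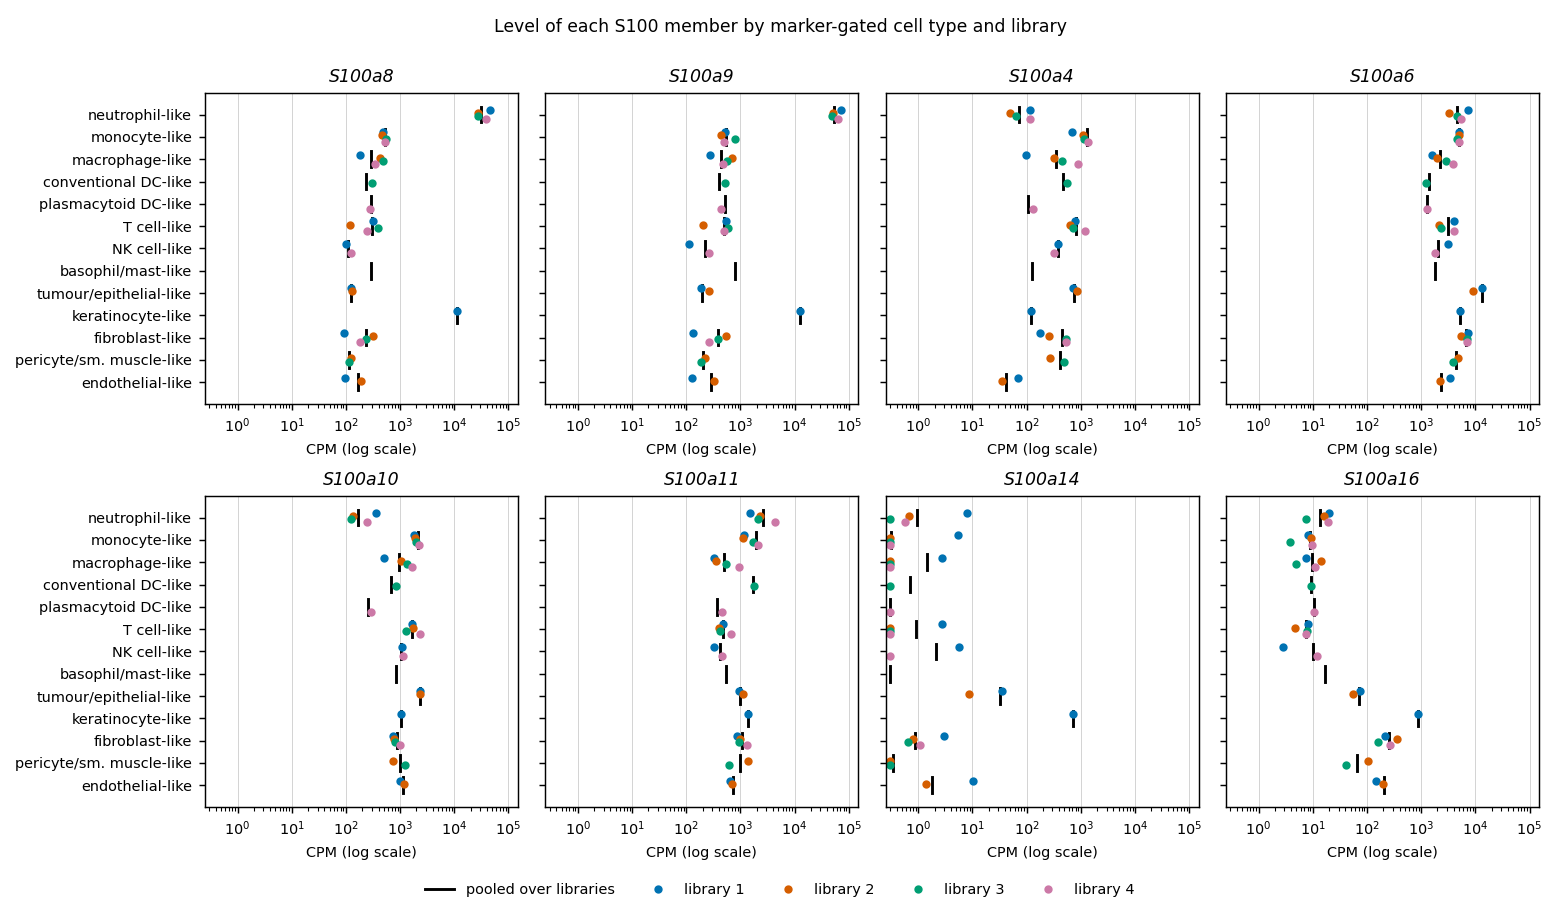
Level of each member (CPM, log scale) in the 13 cell types. Points are libraries with at least 50 cells of the type, black bars are pooled cells, and values under 0.3 CPM are drawn at the left edge. S100a8 and S100a9 stand apart in neutrophil-like and keratinocyte-like cells, S100a6 is above 1000 CPM in every type, and pooled S100a14 is at most 2.16 CPM outside keratinocyte-like and tumour or epithelial-like cells.

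Among the alarmins, S100a8 stood at 46482, 27881, 27528 and 37758 CPM in the neutrophil-like cells of libraries 1 to 4. S100a9, its partner, stood at 72480, 51794, 47965 and 62072 CPM in the same cells. Both were highest in library 1 and lowest in library 3, and every other type lay below neutrophil-like cells in each library. Pooled, S100a8 reached 31036 CPM (30954 to 31118) and S100a9 53820 CPM (53712 to 53929), and the pair took 8.49% of all UMIs of neutrophil-like cells. Neutrophil-like cells held 81.1% of all S100a8 UMIs and 83.2% of all S100a9 UMIs in kept barcodes. The median neutrophil-like cell gave 7.83%, 6.00%, 6.19% and 8.63% of its UMIs to the pair in libraries 1 to 4. Cells nonetheless differed widely, from 0.273% at the 5th percentile to 21.1% at the 95th over the pooled cells. Within each library S100a8 and S100a9 followed each other across single neutrophil-like cells (Pearson r of 0.83, 0.82, 0.82 and 0.78 over 672, 3073, 3140 and 1907 cells that share a library and its depth). The values were lower for S100a8 with S100a11 (r of 0.37, 0.34, 0.35 and 0.25) and S100a6 (0.33, 0.24, 0.21 and 0.17), and near 0 with S100a4 (-0.04, -0.01, -0.05 and 0.01). These 3 genes were counted less well, at 2565, 4523 and 72.4 CPM in pooled cells with a median total of 1812 UMIs. Low counts pull r towards 0, and their part in these values was not tested.

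**Figure D2:**
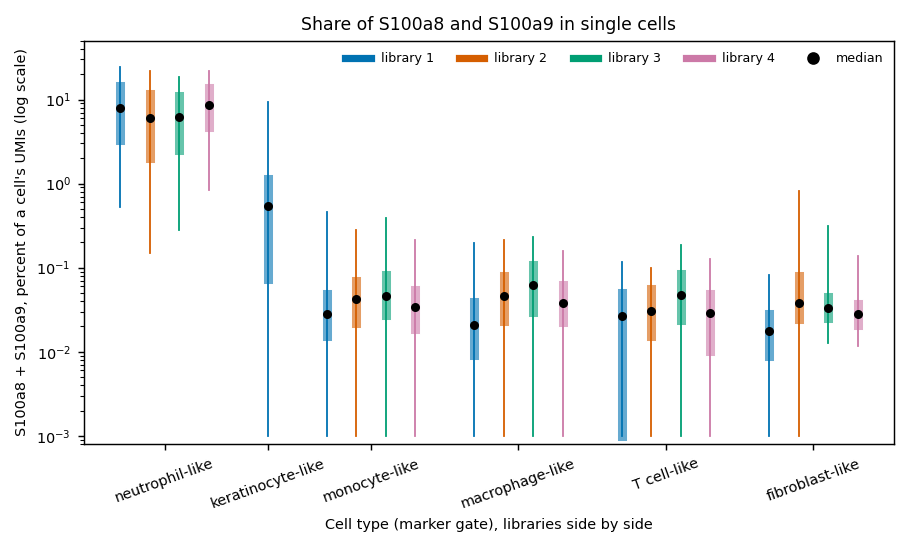
S100a8 and S100a9 together as the percent of a cell's UMIs (log scale) by type and library. Thin lines run from the 5th to the 95th percentile, thick bars from the 25th to the 75th, black points are medians, and values at 0 are drawn at or below 0.001%. Medians are 6.00 to 8.63% in neutrophil-like cells, 0.537% in keratinocyte-like cells and at most 0.0628% in the other types shown.

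Neutrophil-like cells with a UMI of Retnlg, a resistin-like gene of mature neutrophils, held more of the pair than those with Cd274 (the gene of PD-L1) and no Retnlg. In libraries 1 to 4 S100a8 stood at 65135, 39730, 35058 and 45715 CPM with Retnlg, and at 16647, 21522, 21820 and 27696 CPM with Cd274 alone. The ratio was 3.91 in library 1 and 1.61 to 1.85 in the others, so the direction was shared and the size was not. S100a9 followed, with ratios of 3.17, 1.71, 1.48 and 1.55. Between the same subsets S100a6 and S100a11 were also higher with Retnlg in each library (1.30 to 2.21-fold and 1.23 to 2.29-fold), whereas the ratio of S100a4 was 0.567 to 0.969. The pooled median depth of these subsets was close, at 1952 and 1873 UMIs per cell. In library 1 it was 1923 UMIs with Retnlg and 1575 UMIs over the 153 cells with Cd274 alone. The 3766 neutrophil-like cells with neither gene held S100a8 at 19770, 25561, 22258 and 32420 CPM. That was below the cells with Retnlg and above those with Cd274 alone in each library. Their S100a11 was 2685 CPM pooled against 2859 CPM with Retnlg. In library 2 it was ahead (2607 against 2545 CPM), with overlapping intervals.

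Keratinocyte-like cells, marked by Krt5, Krt14 and Lgals7, were next for both alarmins, at 11236 CPM of S100a8 (11030 to 11444) and 12418 CPM of S100a9 (12201 to 12637). All 90 of these cells came from library 1, so the level has no other library behind it. The 5 cells with the most S100a8 held 63.8% of the type's S100a8 UMIs, and without them S100a8 fell to 4731 CPM. The pair exceeded 1% of UMIs in 26 of the 90 cells, and the other 64 cells still held 1907 CPM of S100a8 and 1786 CPM of S100a9. The 26 cells were deeper, with a median of 16040 UMIs against 2614 in the other 64. Of the 9 neutrophil markers, 5 were under 10 CPM in keratinocyte-like cells, Csf3r at 0.988 CPM and Retnlg at 5.93 CPM among them, against 622 and 5225 CPM in neutrophil-like cells of library 1. None was at 0, and their summed level was 526 CPM, of which Mmp9, a protease gene, made up 397 CPM. The type held 21.4 S100a8 UMIs for each UMI of these 9 markers, and the neutrophil-like cells of library 1 held 2.52. The gate itself disfavours cells with neutrophil markers, and the part of mixed droplets in this result was not tested. Leaving out the highest 5% of doublet scores removed 0 of the 90 cells and 10.5% of ungated cells. This is no test of mixed droplets, since cells with mixed markers tend to stay ungated.

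S100a8 and S100a9 were found in every other type too, at far lower levels. Outside neutrophil-like and keratinocyte-like cells S100a8 ran from 111 CPM in NK cell-like to 518 CPM in monocyte-like cells, and S100a9 from 197 CPM in tumour or epithelial-like to 794 CPM in basophil or mast cell-like cells. The last value fell to 364 CPM without the 1 cell, of 76, that had more than 1% of its UMIs in the pair. T cells are not known as a source of either, and 47.7% of T cell-like cells (95% exact binomial interval 44.7 to 50.7%) held a UMI of S100a8 at a median of 3858 UMIs per cell. Once each cell was thinned to 1000 UMIs, so that depth was equal, 16.4% of T cell-like cells (14.2 to 18.8%) and 94.9% of neutrophil-like cells (94.4 to 95.4%) held S100a8. The thinning left out 25 T cell-like and 543 neutrophil-like cells under that depth. By library the thinned share in T cell-like cells was 15.8%, 11.1% and 19.9% in libraries 1 to 3, with an interval of 6.64 to 16.8% in library 4, and the share before thinning was 44.7%, 56.1%, 49.6% and 45.2%. NK cell-like cells held S100a8 in 41.8% of cells before and 14.8% after thinning.

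The share in T cell-like cells was taken as a reference, not as the background expected in each other type. Thinning set equal totals, but the depth before thinning differed. Its median was 3858 UMIs in T cell-like, 8036 in monocyte-like and 19046 in tumour or epithelial-like cells. Free RNA can make up a smaller share of a deeper cell, and the part of this in the thinned shares was not tested. Over pooled cells, outside neutrophil-like and keratinocyte-like cells, monocyte-like cells were the only type whose thinned interval (20.8 to 23.6%, share 22.2%) lay wholly above the T cell-like one. Types and libraries were unevenly mixed, and the order inside libraries differed. Monocyte-like cells held S100a8 in 22.9%, 23.3%, 26.7% and 21.4% of thinned cells, above the T cell-like share in each library, but with an interval apart from it only in library 4. In library 4 macrophage-like cells also lay above it, at 20.2% (17.3 to 23.2%). Pooled tumour or epithelial-like cells lay below it at 9.37% (8.48 to 10.3%). Keratinocyte-like cells held S100a8 in 70.1% of thinned cells and S100a9 in 68.8%. For S100a9 the thinned share was 24.3% in T cell-like cells (21.8 to 27.0%), 20.1% in monocyte-like cells (18.7 to 21.4%) and 97.1% in neutrophil-like cells, all pooled. By library, the monocyte-like against the T cell-like share of S100a9 was 11.4 against 16.9%, 28.0 against 22.2%, 29.7 against 30.1% and 18.1 against 26.2%, with intervals that overlapped in libraries 1 to 3. Before thinning, 71.7% of monocyte-like cells held S100a8 at a median of 8036 UMIs per cell, and the order of these raw shares follows depth as well as level. Barcodes with few genes held the pair too, with S100a8 in 31.9% and S100a9 in 41.1% of them. The 414 barcodes under 300 genes, which the filter left out, held S100a8 at 3266, 3019, 7866 and 1166 CPM in libraries 1 to 4, and S100a9 at 6201, 5583, 12847 and 1879 CPM. Such barcodes can hold free RNA, debris or small cells, which were not told apart.

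**Figure D3:**
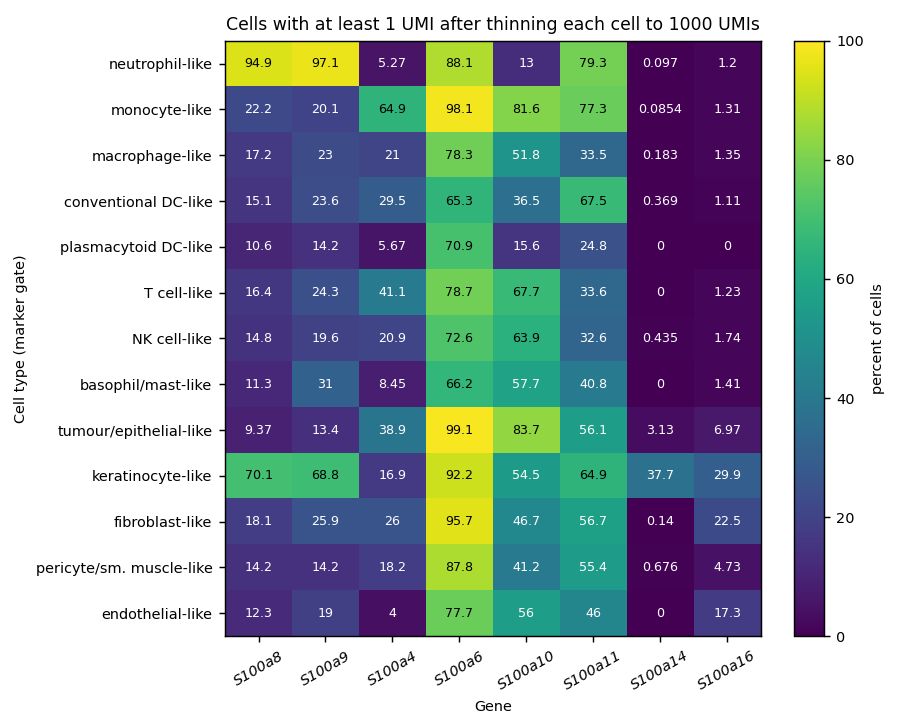
Percent of cells with at least 1 UMI of each member after every cell was thinned to 1000 UMIs, by cell type over pooled cells, with the value printed in each field. S100a8 and S100a9 reach 94.9% and 97.1% in neutrophil-like cells and 70.1% and 68.8% in keratinocyte-like cells, while S100a6 is found in at least 65.3% of cells of every type.

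The ratio of S100a9 to S100a8 UMIs was compared only between types. In libraries 1 to 4 it was 1.56, 1.86, 1.74 and 1.64 in neutrophil-like cells and 1.75, 1.68, 1.54 and 2.03 in T cell-like cells, which lay above the neutrophil-like value in 2 libraries and below it in 2. In monocyte-like cells it was 1.06, 0.951, 1.41 and 0.979, and its interval lay below that of neutrophil-like cells in all 4 libraries. The low-gene barcodes had a pooled ratio of 1.76, against 1.73 in pooled neutrophil-like cells. By library their ratio was 1.90, 1.85, 1.63 and 1.61, above the neutrophil-like value in library 1 and below it in libraries 2 to 4. Keratinocyte-like cells had 1.11. Once cells with more than 1% of their UMIs in the pair were left out, monocyte-like cells held 275 CPM of S100a8 (268 to 281) and 243 CPM of S100a9, with a ratio of 0.885. T cell-like cells held 168 CPM (158 to 180) and 284 CPM under the same rule, with a ratio of 1.69. Pooled macrophage-like cells held 169 CPM of S100a8 under this rule. By library they held 111, 240, 259 and 210 CPM, against 140, 119, 205 and 192 CPM in T cell-like cells. Monocyte-like cells with Chil3, a gene of Ly6c-high monocytes, held 1.86, 1.76 and 1.20 times as much S100a8 as those without it in libraries 2 to 4, while S100a9 was higher with Chil3 in libraries 2 and 3 (2.32 and 1.21 times) and lower in library 4 (0.749 times). The summed level of the 9 neutrophil markers was 599 CPM in monocyte-like and 368 CPM in T cell-like cells. Of these sums, Mxd1 alone made up 316 and 187 CPM. No marker was at 0 in either type, and the part of neutrophil RNA in these differences was not tested.

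**Figure D4:**
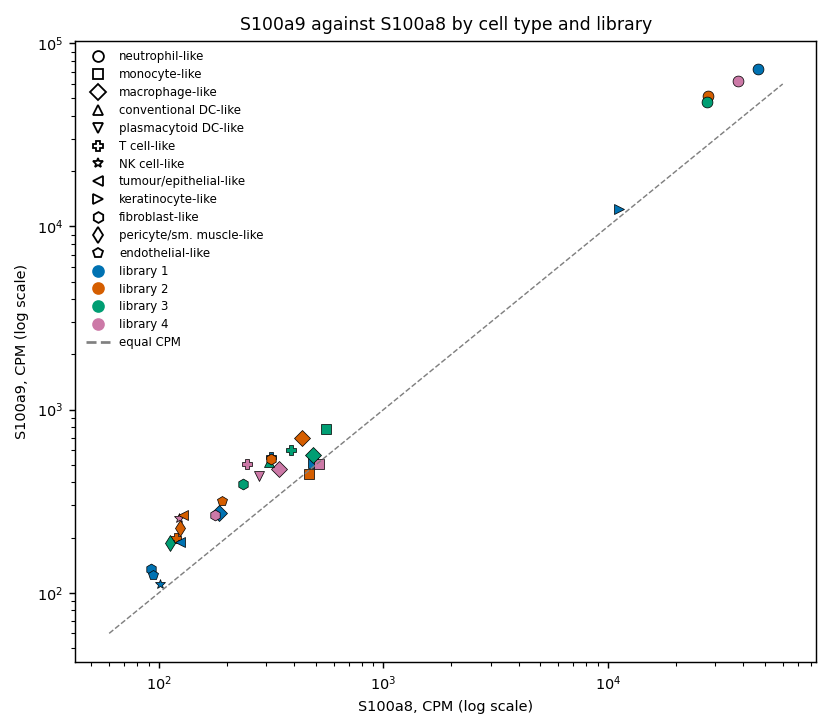
S100a9 against S100a8 (CPM, both axes on log scales) for each cell type in each library with at least 50 cells of the type. The dashed line marks equal CPM. Most points lie above it along one band, and the monocyte-like points of libraries 2 and 4 lie just below it (ratios 0.951 and 0.979).

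Of the receptor genes of calprotectin, Tlr4 was highest in neutrophil-like cells, with 170.0 CPM against 43.9 CPM in monocyte-like cells. It was lowest in keratinocyte-like cells, the type next for the pair, at 0.988 CPM. The co-receptor gene Cd14 was also higher in neutrophil-like than in monocyte-like cells, at 2882 and 774 CPM. Both orders held in each library, with intervals that overlapped in library 1. Per cell, monocyte-like cells led the pooled order with 0.357 UMIs of Tlr4 and 6.29 UMIs of Cd14, but neutrophil-like cells led both genes in library 2 (0.398 and 7.54 UMIs) and Tlr4 in library 3 (0.394 UMIs). Ly96, which encodes the MD-2 subunit of that receptor, was highest in pooled monocyte-like cells at 62.5 CPM, while macrophage-like cells were ahead of them in libraries 2 to 4 (56.1, 60.1 and 69.6 CPM against 46.7, 54.6 and 65.2 CPM) with overlapping intervals. The adaptor gene Myd88 was highest in monocyte-like cells at 157 CPM pooled and in libraries 2 to 4. Ager, the gene of the RAGE receptor, had 137 UMIs in all kept cells. Bsg, which encodes the S100a9-binding protein basigin, stood at 1042 CPM in pooled fibroblast-like cells, which led libraries 1, 3 and 4, and in library 2 tumour or epithelial-like cells were ahead (1440 against 1090 CPM). Cd36, a fatty acid transporter gene, was highest in endothelial-like cells of libraries 1 and 2 (168 and 413 CPM) and in macrophage-like cells of libraries 3 and 4 (165 and 303 CPM), where endothelial-like cells were under 50.

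S100a11, an annexin A1 partner, stood at 1493, 2299, 2125 and 4270 CPM in neutrophil-like cells of libraries 1 to 4. Monocyte-like cells held 1140, 1116, 1693 and 2065 CPM, below neutrophil-like cells in each library but with ranges that overlapped across libraries. The type next to neutrophil-like cells was keratinocyte-like in library 1 (1354 CPM), pericyte or smooth muscle-like in library 2 (1383 CPM), conventional dendritic cell-like in library 3 (1792 CPM) and monocyte-like in library 4. Pooled levels were 2565 CPM (2542 to 2589) in neutrophil-like and 1960 CPM (1944 to 1976) in monocyte-like cells. Pooled T cell-like, NK cell-like and plasmacytoid dendritic cell-like cells were lowest at 474, 412 and 374 CPM. Pooled macrophage-like cells stood at 487 CPM, with an interval that overlapped the T cell-like one. They were the lowest type with at least 50 cells in libraries 1 and 2 (325 and 360 CPM). In each of the 6 types that library 4 shared with another library, S100a11 was highest in library 4. Per cell and pooled, fibroblast-like cells held 31.2 UMIs and neutrophil-like cells 5.15, so the order reversed, and tumour or epithelial-like cells led libraries 1 and 2 on that scale (19.1 and 45.1 UMIs). Fibroblast-like cells held 34.6% of all S100a11 UMIs against 11.2% in neutrophil-like cells. Anxa1 was highest in keratinocyte-like cells at 921 CPM in library 1, with an interval (863 to 982) that overlapped that of tumour or epithelial-like cells, and the leading type was another in each other library, pericyte or smooth muscle-like in libraries 2 and 3 (1021 and 578 CPM) and monocyte-like in library 4 (471 CPM).

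S100a6, also called calcyclin, was the most widely spread member. It was found in at least 65.3% of thinned cells of every type and at 1280 CPM or more in all of them. Tumour or epithelial-like cells led with 13505 CPM in library 1 and 9166 CPM in library 2, the 2 libraries with at least 50 such cells. Fibroblast-like cells followed at 7364, 5501, 7148 and 6977 CPM and led libraries 3 and 4, where tumour or epithelial-like cells were too few to count. Monocyte-like cells held 4632 to 5073 CPM over the 4 libraries, whereas neutrophil-like cells ranged from 3302 to 7195 CPM and overlapped them. Macrophage-like cells lay lower at 1569, 1940, 2885 and 3825 CPM. A single tumour or epithelial-like cell held 276 UMIs of S100a6 on average, and the type held 43.9% of all S100a6 UMIs.

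**Figure D5:**
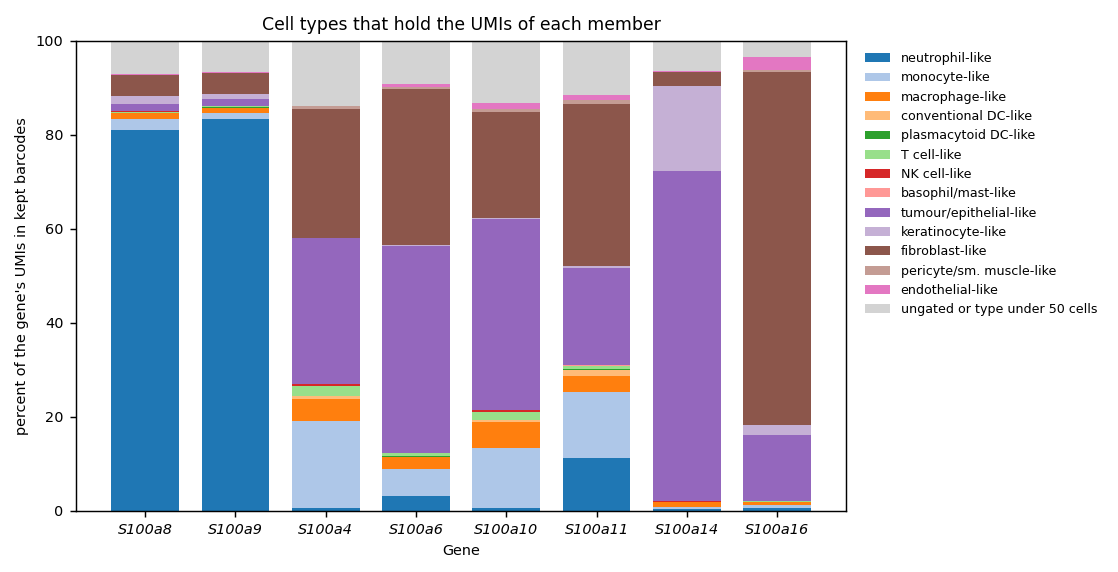
Where the UMIs of each member lie: percent of the member's UMIs in kept barcodes by cell type, as stacked bars that add up to 100 percent, with ungated cells and the type of under 50 cells in grey. Neutrophil-like cells hold 81.1% of S100a8 and 83.2% of S100a9, fibroblast-like cells 75.1% of S100a16, and tumour or epithelial-like cells 70.2% of S100a14 and 43.9% of S100a6.

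S100a10, the partner of annexin A2 at the plasma membrane, was found in every type. It stood at 2319 and 2330 CPM in tumour or epithelial-like cells of libraries 1 and 2. Monocyte-like cells held 1814, 1893, 1998 and 2196 CPM in libraries 1 to 4, and T cell-like cells 1638, 1708, 1300 and 2283 CPM. Library 3 was led by monocyte-like cells and library 4 by T cell-like cells, with intervals that overlapped in library 4. Neutrophil-like cells were lowest of all types at 353, 133, 125 and 246 CPM, the reverse of their place for S100a8, S100a9 and S100a11. T cell-like cells with Foxp3, the gene that marks regulatory T cells, held 2206 CPM against 1482 CPM in those with Cd8a or Cd8b1 and no Cd4, and in library 1, the only library with at least 20 cells of both, the ratio was 1.99. Anxa2 was highest in pooled monocyte-like cells at 1664 CPM, which led libraries 3 and 4, while keratinocyte-like cells led library 1 (1563 CPM) and tumour or epithelial-like cells library 2 (1405 CPM), and it had 217 CPM in plasmacytoid dendritic cell-like cells, where S100a10 stood at 254 CPM. Of the other annexins, Anxa6 was ahead in T cell-like over NK cell-like cells in both libraries with at least 50 NK cell-like cells (196 against 158 CPM in library 1, with overlapping intervals, and 342 against 265 CPM in library 4), while the pooled values, 226 and 257 CPM, had the opposite order with overlapping intervals. Anxa11 was highest in pooled basophil or mast cell-like cells at 185 CPM, a type with under 50 cells in every library.

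S100a4, known as metastasin or fibroblast-specific protein, was higher by CPM in monocyte-like, T cell-like and tumour or epithelial-like cells than in fibroblast-like cells. It stood at 676, 1091, 1140 and 1354 CPM in monocyte-like cells of libraries 1 to 4 and at 785, 631, 722 and 1192 CPM in T cell-like cells. Tumour or epithelial-like cells held 729 and 856 CPM in libraries 1 and 2. In library 1 T cell-like cells were therefore ahead of the 71 monocyte-like cells, with overlapping intervals, and in the other 3 libraries monocyte-like cells led. Fibroblast-like cells differed between libraries, with 173 and 255 CPM in libraries 1 and 2 and 525 and 538 CPM in libraries 3 and 4. Macrophage-like cells did so more widely, at 97.7, 314, 443 and 875 CPM. Neutrophil-like and endothelial-like cells held little of it, at 72.4 and 41.5 CPM. Among dendritic cell-like cells, those with Ccr7 and Fscn1, genes of migrating cells, held 595 CPM against 43.2 CPM in those with Xcr1 or Clec9a (204 and 52 cells, pooled over libraries). Of the former 179 were in library 3 (585 CPM) and of the latter 20 in library 1 (53.5 CPM), so subset and library cannot be told apart here. Per cell and pooled, tumour or epithelial-like cells led with 15.7 UMIs, and they led libraries 1 and 2 (14.6 and 34.2 UMIs). Fibroblast-like cells led libraries 3 and 4 on that scale (18.2 and 19.95 UMIs), ahead of monocyte-like and T cell-like cells.

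In tumour or epithelial-like cells with both Mki67 and Top2a, genes of dividing cells, S100a4 was 1.42 and 1.66 times (libraries 1 and 2) and S100a6 1.28 times (library 1) the level of cells with neither gene, with 12460 against 8321 CPM of S100a6 in library 2. S100a10 (1.19 and 1.22 times) and S100a11 (1.21 and 1.26 times) were also higher in these libraries. Of the 727 cells with both Mki67 and Top2a, 38 were in library 2. S100a14 was lower in the dividing cells (0.640 and 0.447 times in the same libraries) and so was S100a16 (0.550 and 0.427 times). Dividing cells were deeper, with a pooled median of 30313 against 15394 UMIs, and the part of depth in choosing them was not tested.

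S100a14, a member of epithelia, and S100a16 were the rarest members, with 3927 and 43868 UMIs in kept barcodes. Both were highest in keratinocyte-like cells of library 1, S100a14 at 706 CPM (655 to 759) and S100a16 at 860 CPM (804 to 919). S100a14 reached 34.7 and 8.82 CPM in tumour or epithelial-like cells of libraries 1 and 2 and at most 2.16 CPM, pooled, in any other type. It had 0 UMIs in plasmacytoid dendritic cell-like and basophil or mast cell-like cells, where 3 counts would be 3.15 and 10.3 CPM. In every one of the 8 types with at least 50 cells in library 1 and in another library, its level was highest in library 1. That library also held the keratinocyte-like cells and most tumour or epithelial-like cells, and the latter held 72.4% of its S100a14 UMIs. Some of these levels rested on few UMIs, as in NK cell-like, monocyte-like and T cell-like cells of library 1 (5.76, 5.37 and 2.75 CPM). S100a16 was not limited to epithelia. It stood at 213, 360.3, 157 and 268 CPM in fibroblast-like cells of libraries 1 to 4 and at 150 and 198 CPM in endothelial-like cells of libraries 1 and 2, against 73.7 and 56.2 CPM in tumour or epithelial-like cells of the same libraries. Fibroblast-like cells held 75.1% of its UMIs, and leucocyte types held 7.40 to 17.1 CPM.

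Of the 9 other S100 genes in the matrix, S100a13 and S100a1 were measured well, with 66694 and 18526 UMIs in kept barcodes. S100a13 was highest in T cell-like cells at 365 CPM, ahead of endothelial-like cells at 324 CPM, an order that held in library 2 and was within counting error in library 1 (290.0 and 296 CPM), and was low in neutrophil-like cells at 68.2 to 116 CPM over the libraries. S100a1 was highest in tumour or epithelial-like cells in library 1 (104 CPM) and pooled (97.4 CPM), while in library 2 they held 44.6 CPM against 86.9 CPM in macrophage-like cells. The other 7 (S100a3, S100b, S100a7a, S100a5, S100a2, S100g and S100z) had 848 UMIs or fewer each, and S100z had 0.

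Across the 31 combinations of cell type and library with at least 50 cells, which share libraries and depth, Pearson's r of log2(CPM + 10) was 0.99 between S100a8 and S100a9. S100a8 and S100a11 had r of 0.63, S100a4 and S100a10 had 0.77, and S100a8 and S100a10 had -0.66. The genes most like S100a8 and S100a9 among 11901 were Chil1, Stfa2 and Asprv1 (r of 0.95 to 0.97). S100a14 was most like Serpinb5, Krt17 and Rab25 (0.98, 0.97 and 0.97), and S100a16 most like Il17rc, Adamts1 and Sh3d19 (0.96, 0.94 and 0.94). The values for S100a14 rest largely on keratinocyte-like and tumour or epithelial-like cells of library 1 (706 and 34.7 CPM). Every other combination held at most 10.3 CPM of it, near the 10 CPM added before the log. S100a10 was closest to Tpt1, Ppp1ca and Psma6 (0.89, 0.85 and 0.83) and S100a4 to Tpt1, Dhps and Aldh9a1 (0.73, 0.72 and 0.70). S100a11 was closest to its copy Gm12854 (0.89), then to Il13ra1 (0.81), and S100a6 to Zfp503, Fosl1 and Pkm (0.76, 0.72 and 0.72).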

How the data were processed

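Single cell suspensions from 4T1 tumours were sorted for CD45 and made into 10x single cell 3′ v2 libraries, per the labels. The authors deposited 1 matrix of UMI counts for 55450 genes and 33064 barcodes, as whole counts with no normalization. Their processing notes name Cell Ranger 2.1.1 and mm10, the matrix header names Cell Ranger 6.1.2, and the study's methods name another version. All 55450 identifiers matched GENCODE vM21.

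Barcodes with at least 300 genes and at most 15% mitochondrial UMIs were kept. A cell's score for a type was the mean over its markers of log(1 + UMIs per 10000), each divided by its 90th percentile over the cells that held it and capped at 1. A cell got the type of the highest score where at least 2 of its markers had a UMI and the score was at least 1.5 times the next. This rule was set after the data were seen, and the members and lists were chosen with earlier results of these data known. Counts were summed per type and library and given as CPM with exact 95% Poisson intervals. Shares of cells have exact Clopper-Pearson intervals, and both cover counting error only. For equal depth, each cell was thinned to 1000 UMIs (seed 1), which left out 1890 cells. As no source ties a barcode suffix to a sample, the matrix counts as 1 pooled sample with 4 libraries, and no test was run. Doublets were kept, and an alternative left out the highest 5% of Scrublet scores in each library.

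The named genes are all members, the other S100 genes, a list of 11 partners and receptors, the markers, and the 3 genes most like each member by Pearson's r of log2(CPM + 10) among genes with at least 1000 UMIs. For S100a11, 1 of these genes is not reported here. Subsets of types were chosen by marker genes after the data were seen, apart from the split of neutrophil-like cells by Retnlg or Cd274. Copies of members were searched for with BLAST 2.17.0, and promoters came from RefSeq. The alternatives were other barcode filters, a stricter gate, clusters, thinning, doublets, libraries left out, the weight of libraries, detection at 2 UMIs and a smaller minimum of cells. Scripts ran in Python 3.11.15 with numpy 2.4.6, scipy 1.17.1, pandas 2.3.3, scanpy 1.11.5, scikit-learn 1.9.0 and igraph 0.11.9, and figures in matplotlib 3.10.9. The gate, levels, thinning and intervals were tested on simulated data.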

Additional observations from a re-analysis of the deposited data

How the results depend on the processing

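The leading type stayed as reported for 8 of 8 members under other barcode filters, a stricter gate, thinning, removal of high doublet scores, clusters in place of gates and the mean over libraries. Leaving out 1 library at a time kept 6 to 8 leading types. The 6 were without library 1, where S100a14 passed to tumour or epithelial-like and S100a16 to fibroblast-like cells. The count of members with 1 leading type in every library ranged from 3 to 5 with a library left out, and the 5 were without library 1, with fewer libraries to differ. UMIs per cell in place of CPM, an alternative chosen after seeing the data, kept 4 of the leading types. On this scale, a mean over cells, 0 members were led by pooled neutrophil-like cells and 0 had 1 leading type in every library. The median S100a8 count was still higher in pooled neutrophil-like cells (39 UMIs) than in keratinocyte-like cells (5 UMIs). Inside libraries 2 to 4, neutrophil-like cells still led S100a8 and S100a9 per cell. The S100a8 level in neutrophil-like cells, 31036 CPM as reported, was 31152 CPM with 1 more marker needed, 30351 CPM after thinning, 31772 CPM without high doublet scores, 28909 CPM in clusters and 34912 CPM as the mean over libraries, and 29367 to 33284 CPM with a library left out. The T cell-like share with S100a8, 47.7% as reported, was 16.4% after thinning and 16.5% at 2 UMIs. The other alternatives for this share gave 46.3 to 50.1%. No paired analysis was possible because no source ties the libraries to samples and no test was run. Depth limits the rare types and members most: 76 basophil or mast cell-like cells and 3927 UMIs of S100a14 carry wide intervals, and all intervals leave out the spread between animals.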
